A study of Mus musculus with 12 samples.

Results

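The 10 genes described here belong to the negative limb and the output of the circadian clock, and were followed in the gut of mice with and without colitis: the Period genes Per1, Per2 and Per3, the Rev-Erb genes Nr1d1 and Nr1d2, the PAR bZIP transcription factor genes Dbp, Tef and Hlf, and the repressor genes Ciart and Bhlhe41. They were taken by symbol from the deposited expression table, which held all 10 of 10 among its 17734 genes, and all 10 passed the filter on low values that left 15315 genes for testing. Bulk RNA-seq was done on colorectal tissue by the sample labels and on rectal samples by the methods of the study, from male C57BL/6 mice aged 8 to 10 weeks. The 4 groups held 3 mice each: normal mice drinking water, normal mice receiving berberine (BBR, a plant alkaloid given by gavage at 100 mg/kg), mice with colitis from 2.5% dextran sulfate sodium (DSS) in the drinking water for 7 days, and colitis mice receiving BBR. The labels state 6 days of BBR, whereas the methods of the study give a daily dose from day 1 to day 7 or a later start, so the sources differ on its length. The methods state that collection started from 9 am, and no time of collection of a single mouse was given, so time of day could not be entered in any fit.

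In the mammalian clock, the activators CLOCK and BMAL1 (encoded by Arntl) switch on the Period and cryptochrome genes, whose proteins then repress CLOCK and BMAL1. Rev-Erb proteins repress Arntl, and DBP, TEF and HLF carry the rhythm to output genes through D-box elements. Peripheral tissues including the intestine run this loop, and transcripts of most of these genes swing strongly over the day.

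The E-box CACGTG, which CLOCK and BMAL1 bind, and the D-box TTATGNAA, which DBP, TEF and HLF bind and the product of Nfil3 represses, were searched for on both strands of RefSeq promoters of 300 bases (250 before to 50 after the start site, build GRCm38.p6). Promoter entries were found for 9 of the 10 genes, Per2 being without one, in 11 entries in all. An E-box stood in the promoters of 4 of these 9 genes (Ciart, Per1, Tef and Bhlhe41). By entry, it stood in 5 of the 11, against 7.15% of all 32851 promoter entries. Ciart held 3 E-boxes, as 0.0883% of all promoters did. The D-box was found in Per3, with 2 copies, and in Per1, against 3.38% of all promoters with at least 1 copy and 0.161% with 2 or more. Hlf held the cAMP response element TGACGTCA, present in 1.79% of promoters, and Per1 and Nr1d2 held the nuclear receptor half-site AGGTCA, present in 16.3%. These are matches of letters, with no measurement of binding behind them. The stretches that hold the E-boxes of Ciart, Per1, Tef and Bhlhe41, the D-boxes of Per3 and Per1 and the element of Hlf are shown because they are what these promoters share or differ in, with the matched motif in capitals.
Ciart promoter, chr3:95882247-95882364, minus strand: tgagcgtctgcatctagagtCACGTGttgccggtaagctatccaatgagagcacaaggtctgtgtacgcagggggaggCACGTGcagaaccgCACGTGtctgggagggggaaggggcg
Per1 promoter, chr11:69098763-69098948, plus strand: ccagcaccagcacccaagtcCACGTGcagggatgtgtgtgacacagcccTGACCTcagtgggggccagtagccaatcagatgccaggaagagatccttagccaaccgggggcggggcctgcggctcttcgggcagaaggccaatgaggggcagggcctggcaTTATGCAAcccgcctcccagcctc
Tef promoter, chr15:81802526-81802571, plus strand: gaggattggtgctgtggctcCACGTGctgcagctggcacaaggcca
Tef second promoter, chr15:81811256-81811301, plus strand: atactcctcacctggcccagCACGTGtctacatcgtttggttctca
Bhlhe41 promoter, chr6:145865548-145865593, minus strand: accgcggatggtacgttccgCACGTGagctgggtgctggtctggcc
Per3 promoter, chr4:151044796-151044890, minus strand: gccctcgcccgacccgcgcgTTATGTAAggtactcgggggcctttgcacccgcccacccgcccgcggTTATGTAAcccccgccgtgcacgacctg
Hlf promoter, chr11:90390918-90390946, minus strand: tcggcgcgcggtgcgggcccTGACGTCAc
Each stretch ends upstream of the RefSeq start site. In the Per1 stretch the first capitals are the E-box, the next the half-site on the other strand and the last the D-box. Both promoter entries of Tef hold an E-box, and both are shown.

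In the GENCODE annotation of GRCm38, the genes were placed with Per1 at chr11:69095217-69109960, Per2 at chr1:91415982-91459324, Per3 at chr4:151003652-151044665, Nr1d1 at chr11:98767932-98775333, Nr1d2 at chr14:18204054-18239127, Dbp at chr7:45705088-45710203, Tef at chr15:81802421-81826863, Hlf at chr11:90336536-90390895, Ciart at chr3:95878503-95882251 and Bhlhe41 at chr6:145858243-145865558. The deposited values were made on build mm9 and carry no coordinates. Values were taken as FPKM, fragments per kilobase of transcript scaled to the depth of the library, which allows levels to be compared between genes. The unit was inferred from the values. Averaged over the 12 mice, Nr1d1 was the most abundant of the 10 genes at 64.1 FPKM, followed by Dbp at 46.4, Tef at 29.1, Nr1d2 at 21.1, Per1 at 14.05, Per2 at 13.4, Ciart at 10.998, Per3 at 6.58, Hlf at 1.33 and Bhlhe41 at 0.502. The range over mice was wide. The highest mouse stood 7.28 times above the lowest for Per2, 8.99 times for Per1, 28.6 times for Nr1d1 and 221 times for Dbp.

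The mice carry numbers in their labels, and the 4 mice numbered 4, 1 in each group, differed from the other 8 in the table as a whole. Their FPKM columns summed to between 482194 and 504337, against 696286 to 765876 in the mice numbered 1 to 3, and they had 872 to 1086 genes at 0 against 1332 to 1926. What the number stands for is not given in the sources used here. The mouse numbered 4 had the highest value of its group for 4 of the 10 genes in normal mice (44.9% of all tested genes), for 9 in normal mice receiving BBR (36.5%), for 10 in colitis mice (54.2%) and for 10 in BBR-treated colitis mice (61.0%), and it never had the lowest. Each comparison of 2 groups is therefore also given within the mice numbered 1 to 3.

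**Figure D1:**
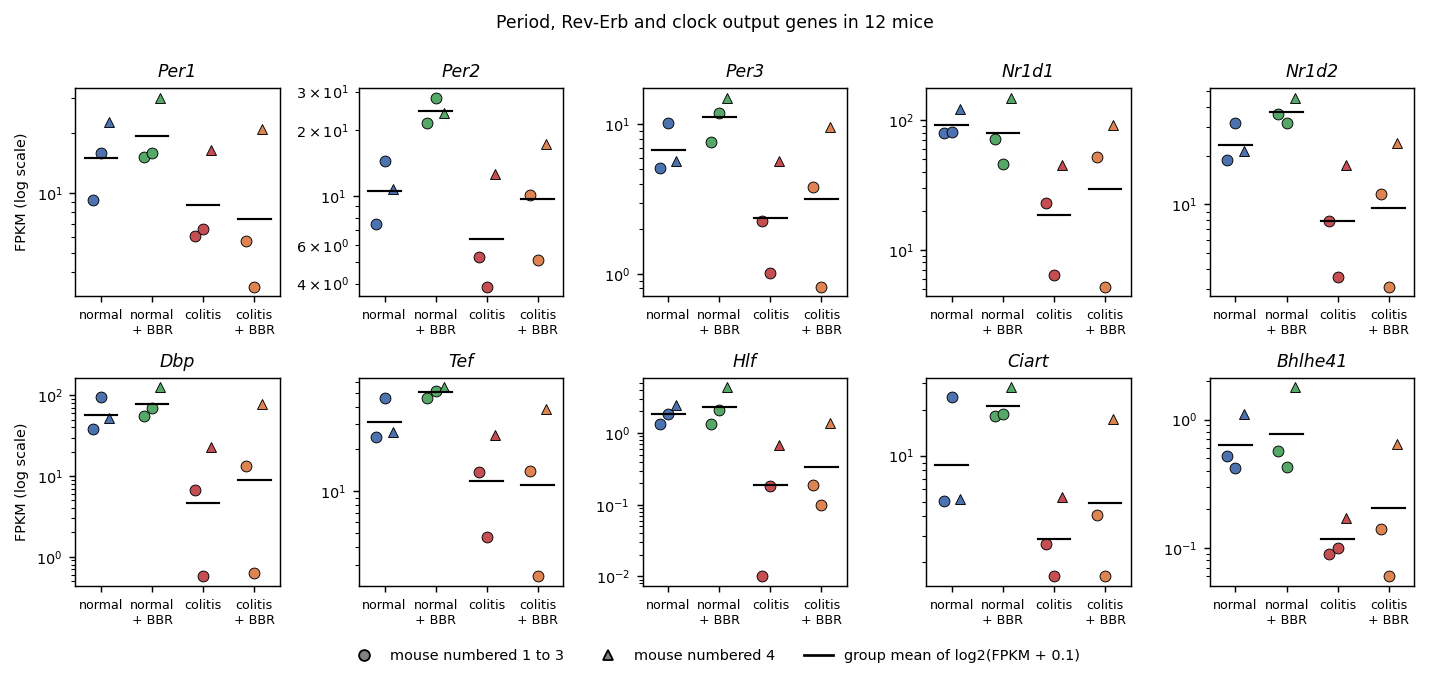
FPKM on a log axis for the 10 genes in each of the 12 mice, by group, with triangles for mice numbered 4, circles for mice numbered 1 to 3 and a line at the group mean of log2(FPKM + 0.1). In both colitis groups the triangle is the highest of the 3 points for every gene, and the lowest values of the plot lie among the circles of these groups.

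Per1, the Period gene that answers most directly to hormonal and stress signals, was at 9.27, 15.9 and 22.7 FPKM in the 3 normal mice and at 6.06, 6.57 and 16.6 in colitis mice. With BBR it was at 15.2, 16.0 and 30.3 in normal mice and at 5.73, 3.37 and 21.0 in colitis mice. The groups overlapped, and the mouse numbered 4 was the highest in each. Per2, a core repressor of CLOCK and BMAL1, was at 7.51, 14.4 and 10.8 FPKM in normal mice and at 21.6, 28.2 and 23.9 in BBR-treated normal mice. These 2 groups did not overlap. In colitis mice Per2 was at 5.31, 3.87 and 12.6, and in BBR-treated colitis mice at 10.1, 5.14 and 17.3, and these 2 groups overlapped. Per3, a further Period gene that is dispensable for the core rhythm, was at 5.14, 10.3 and 5.67 in normal mice, 7.64, 11.97 and 15.1 in BBR-treated normal mice, 2.26, 1.01 and 5.71 in mice with colitis and 3.79, 0.82 and 9.60 in BBR-treated colitis mice.

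Nr1d1, which encodes REV-ERB alpha, the heme-binding repressor of Arntl, was at 79.3, 80.4 and 122 FPKM in normal mice. It was at 22.9, 6.36 and 44.6 in colitis mice, all below the normal mice. With BBR it was at 71.5, 46.1 and 149 in normal mice and at 51.9, 5.2 and 90.6 in colitis mice, where 1 mouse was near the normal level and another was the lowest of all 12. Nr1d2, which encodes REV-ERB beta, was at 18.7, 31.7 and 21.4 in normal mice and at 7.92, 3.55 and 17.4 in colitis mice, again without overlap. It was at 36.2, 31.7 and 45.6 in BBR-treated normal mice and at 11.7, 3.10 and 23.8 in BBR-treated colitis mice. All 3 normal mice receiving BBR lay above all 3 normal mice, by 31.70 against 31.67 FPKM at the closest.

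Dbp, whose transcript is among the most strongly rhythmic in many tissues, was at 37.9, 94.6 and 51.7 FPKM in normal mice and at 6.72, 0.57 and 22.9 in colitis mice. It was at 55.3, 69.4 and 126 in BBR-treated normal mice and at 13.5, 0.62 and 77.0 in BBR-treated colitis mice. The 2 colitis groups spanned 40.2 and 124 times between their lowest and highest mouse, the normal groups 2.49 and 2.28 times. Tef was at 24.4, 46.5 and 26.6 in normal mice, 46.3, 52.1 and 55.4 in BBR-treated normal mice, 13.8, 4.70 and 25.1 in mice with colitis and 13.98, 2.47 and 38.4 in BBR-treated colitis mice. Hlf was at 1.35, 1.82 and 2.5 in normal mice and at 1.35, 2.07 and 4.37 in BBR-treated normal mice. It was at 0.01, 0.18 and 0.69 in mice with colitis and at 0.19, 0.10 and 1.37 in BBR-treated colitis mice. The value of 0.01 is below what 3 reads would give, estimated at 0.0271 to 0.0472 FPKM for Hlf, and is the only value of the 10 genes at or under that limit.

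Ciart, whose product CHRONO represses CLOCK and BMAL1, was at 5.06, 24.2 and 5.19 FPKM in normal mice and at 18.0, 18.8 and 28.0 in BBR-treated normal mice. It was at 2.64, 1.64 and 5.32 in mice with colitis and at 4.07, 1.62 and 17.4 in BBR-treated colitis mice. The 3 normal mice were split, 1 at 24.2 and the others at 5.06 and 5.19. Bhlhe41, which encodes the E-box-binding repressor DEC2, was the scarcest, at 0.52, 0.42 and 1.10 in normal mice, 0.57, 0.43 and 1.79 in BBR-treated normal mice, 0.09, 0.10 and 0.17 in colitis mice and 0.14, 0.06 and 0.64 in BBR-treated colitis mice. At these levels its lowest value stood for about 4.45 reads.

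The first comparison asked what colitis did to these genes in mice without BBR. Fold changes are differences in log2(FPKM + 0.1), which understate the change of the scarcest genes, and tests are limma's, fitted over all 4 groups and adjusted over all 15315 genes by the method of Benjamini and Hochberg. All 10 genes were lower in colitis mice, as were 73.7% of all tested genes, and their median log2 fold change was −1.55, where that of all tested genes was −0.32. Of the genes at an unadjusted P of at most 0.05, 852 were higher and 2428 lower. Quantile normalization moved the median of all tested genes to −0.05, that of the 10 genes to −1.27 and the split to 1488 higher and 1521 lower. None passed an adjusted p of 0.05 in limma (1.08% of tested genes did). At an unadjusted P of at most 0.05, 5 were lower (15.9% of tested genes): Hlf at −2.74 ± 0.82 (log2, SE, adjusted p = 0.108 in limma), Bhlhe41 at −1.75 ± 0.62 (adjusted p = 0.154), Nr1d1 at −2.29 ± 0.94 (adjusted p = 0.194), Dbp at −3.60 ± 1.49 (adjusted p = 0.196) and Nr1d2 at −1.55 ± 0.66 (adjusted p = 0.208). The same 5 genes were those whose 3 colitis mice lay below all 3 normal mice, as 22.2% of tested genes did. The exact permutation test of 3 against 3 gave them p = 0.1, two-sided, the smallest it can give. With a block for the replicate number, Hlf (adjusted p = 0.0298 in limma) and Bhlhe41 (adjusted p = 0.0296) passed, as 4.79% of tested genes did. The 5 genes at an unadjusted P of at most 0.05 stood beside 21.4% of tested genes in either direction. They became 2 without normal mouse 3 (17.1% in either direction) or colitis mouse 2 (14.8%), 1 without normal mouse 4 (15.6%) and 9 without colitis mouse 4 (31.4%).

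Averaging the DSS difference over mice without and with BBR used all 12 mice. All 10 were lower in colitis (78.5% of tested genes were), all 10 had an unadjusted P of at most 0.05 in limma (33.3% of tested genes were lower at that limit) and 3 passed the adjusted p of 0.05 (11.4% of tested genes). The median of the 10 genes was −1.77, with all tested genes at −0.36, and after quantile normalization these were −1.46 and −0.04, with 1925 genes higher and 2132 lower at an unadjusted P of at most 0.05 in place of 880 and 5100. Hlf fell by 2.60 on the log2 scale (SE 0.58, adjusted p = 0.0234 in limma), Nr1d2 by 1.75 (SE 0.47, adjusted p = 0.0372) and Bhlhe41 by 1.63 (SE 0.44, adjusted p = 0.0382). The largest difference was that of Dbp, −3.35 ± 1.05 (95% interval −5.65 to −1.06), with an adjusted p of 0.0518 in limma. Ciart at −1.82 ± 0.56 and Tef at −1.80 ± 0.58 had adjusted p = 0.0501 and 0.0544 in limma. Nr1d1 was at −1.86 ± 0.66, and the Period genes were at −1.62 ± 0.54 for Per3, −1.07 ± 0.44 for Per1 and −1.02 ± 0.33 for Per2. The exact permutation test within BBR strata (400 relabellings, two-sided, smallest possible p 0.005) gave p = 0.005 for Nr1d2, 0.01 for Tef and Hlf, 0.015 for Dbp and Bhlhe41, 0.02 for Ciart, 0.03 for Per2 and Per3, 0.035 for Nr1d1 and 0.06 for Per1. The count of 3, beside 14.3% of tested genes in either direction, depended on the fit, and the shares that follow are also in either direction. It was 5 with a replicate block (16.1% of tested genes), 10 with a block for the mice numbered 4 (34.9%), 10 in the mice numbered 1 to 3 alone (40.4%) and 1, Hlf, after quantile normalization (8.34%) or median centring (6.69%). Leaving out colitis mouse 4 gave 10 (27.5% of tested genes), as did leaving out the BBR-treated colitis mouse 4 (38.8%). Without any other single mouse it was 0 or 1 (2.08% to 5.81% of tested genes): it was 0 without normal mouse 1, 3 or 4, normal mouse 3 or 4 receiving BBR, colitis mouse 1 or BBR-treated colitis mouse 3, and 1 without normal mouse 1 receiving BBR, colitis mouse 2 or BBR-treated colitis mouse 2.

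**Figure D2:**
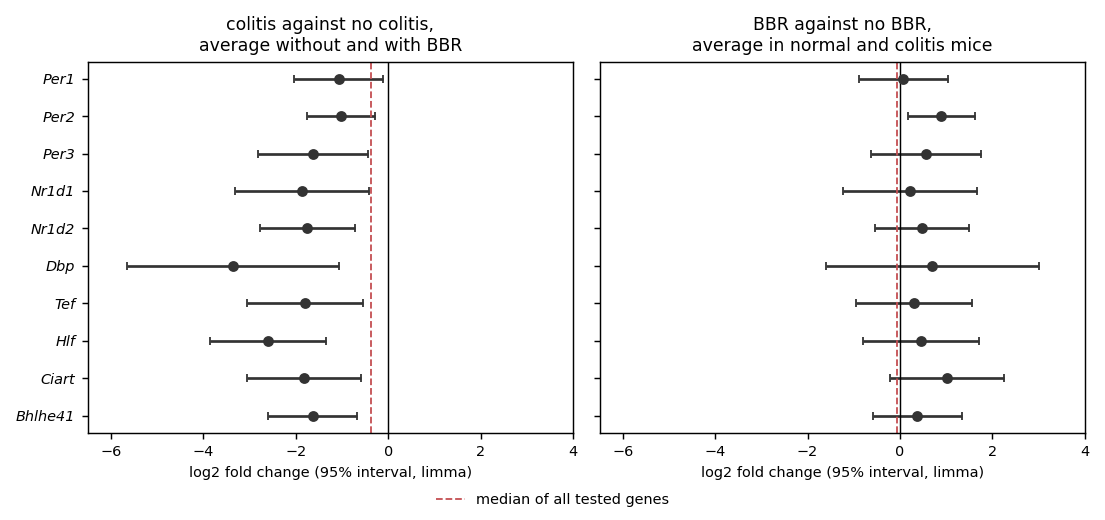
Log2 fold changes with 95% intervals from limma for the 10 genes, for colitis averaged over mice without and with BBR on the left and for BBR averaged over normal and colitis mice on the right, with the dashed line at the median of all tested genes. All 10 points lie below 0 for colitis, Dbp lowest at −3.35, and all 10 lie above 0 for BBR, where the interval of Per2 alone leaves out 0.

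The difference between colitis and normal mice was unevenly spread over the mice. In the 2 colitis and 2 normal mice numbered 1 to 3, the median difference of the 10 genes was −2.18 on the log2 scale, with all tested genes at a median of −0.42. Between the single colitis and normal mouse numbered 4 it was −0.37, with all tested genes at −0.10. Dbp differed by −4.81 in the former and −1.17 in the latter, Nr1d2 by −2.17 and −0.30, and Tef by −2.05 and −0.09. Bhlhe41, at −1.54 and −2.15, was the only gene with a larger difference in the mice numbered 4. Per2, Per3 and Ciart differed by 0.22, 0.01 and 0.04 in the mice numbered 4. Between BBR-treated colitis and BBR-treated normal mice, all 10 genes were lower in both sets, at −0.46 to −1.60 in the mice numbered 4 and at −1.60 to −4.31 in the others.

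**Figure D3:**
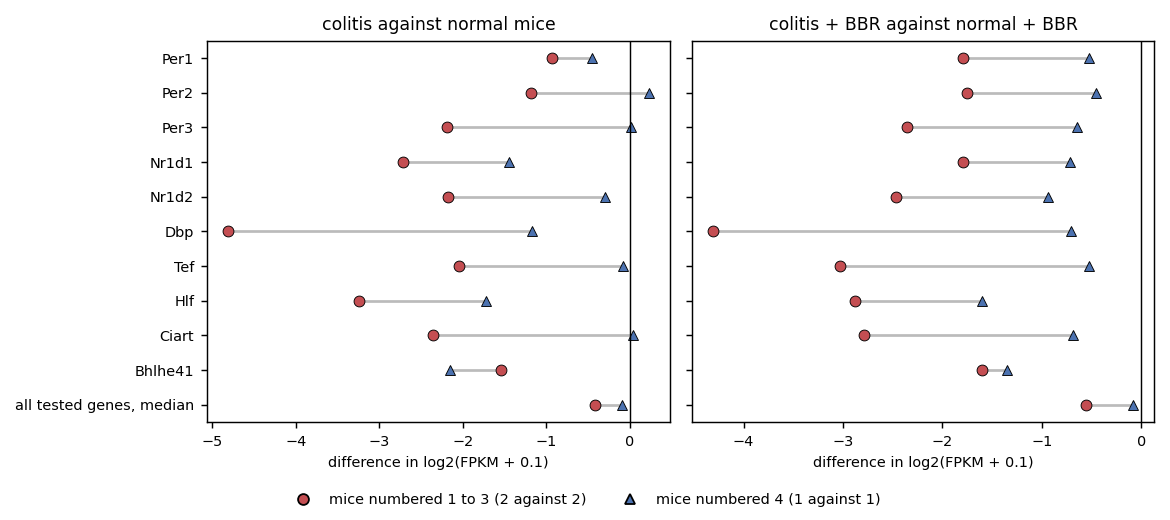
Differences in log2(FPKM + 0.1) for each gene between colitis and normal mice, without BBR on the left and with BBR on the right, taken within mice numbered 1 to 3 (circles, 2 against 2) and within mice numbered 4 (triangles, 1 against 1). Circles lie left of triangles for every gene but Bhlhe41 without BBR.

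Among mice receiving BBR, colitis mice had lower values than normal mice for all 10 genes (80.1% of tested genes), with a median of −1.87 against −0.40 over all tested genes. No gene passed the adjusted p in limma (0.0392% of tested genes did), and 8 were lower at an unadjusted P of at most 0.05 (17.3% of tested genes), with Nr1d1 and Dbp outside it (adjusted p = 0.364 and 0.264). Hlf differed by −2.46 ± 0.82 (adjusted p = 0.215 in limma), Tef by −2.197 ± 0.81 (adjusted p = 0.221), Ciart by −2.09 ± 0.79 (adjusted p = 0.222) and Nr1d2 by −1.96 ± 0.66 (adjusted p = 0.215). Per2, Nr1d2, Tef and Ciart were without overlap (18% of tested genes). The 8 became 5 after quantile normalization, where 994 genes were higher and 900 lower at that limit (5.88% of tested genes lower) in place of 363 and 2647, and 5 after median centring (4.06% lower). They became 4 without normal mouse 4 receiving BBR (14.8% of tested genes in either direction, where 19.7% had it with all mice) or colitis mouse 2 receiving BBR (10.7%), and 0 without colitis mouse 3 receiving BBR (9.44%). Without colitis mouse 4 receiving BBR, 9 genes passed the adjusted p in limma, as did 14.7% of tested genes. In the mice numbered 1 to 3 the median was −2.41, and in those numbered 4 −0.70. Against untreated normal mice, colitis mice receiving BBR were also lower for all 10 (81.1% of tested genes), although Per2 turned to 0.28 after quantile normalization and 0.37 after median centring, with none past the adjusted p in limma (0.0196% of tested genes) and Hlf alone at an unadjusted P of at most 0.05 (18.3% of tested genes), at −2.14 ± 0.82 (adjusted p = 0.225 in limma). No gene was without overlap there (20.8% of tested genes), the colitis mouse 4 receiving BBR lying within the normal range for 9 genes and above it for Per2. With all mice 20.1% of tested genes reached an unadjusted P of 0.05 or less in either direction. The count of 1 became 9 without the BBR-treated colitis mouse 4 (40.9% in either direction), with 4 past the adjusted p in limma (18.9%), and 0 without normal mouse 4 or BBR-treated colitis mouse 2 or 3 (9.68% to 13.9%). The median of the 10 genes was −2.03 in the mice numbered 1 to 3 and 0.34 in those numbered 4.

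Whether BBR moved these genes in colitis was asked by comparing colitis mice with and without it. Of the 10, 8 were higher with BBR (38% of tested genes), with a median of 0.54 against −0.09 over all tested genes, and Per1 and Tef were at −0.23 ± 0.62 and −0.09 ± 0.81, Tef turning to 0.0717 after quantile normalization and 0.0615 after median centring. No gene had an unadjusted P of at most 0.05 in limma (6.39% of tested genes did), 0 passed the adjusted p (0% of tested genes), and none was without overlap (7.08%). The largest differences were those of Dbp at 0.95 ± 1.49 (95% interval −2.30 to 4.19) and Ciart at 0.76 ± 0.79 (−0.98 to 2.497). Their intervals held differences in both directions. Without colitis mouse 2 the median was −0.16, and without BBR-treated colitis mouse 4 it was −0.33. Leaving out a different mouse also raised it, over the range given in the closing section. Without BBR-treated colitis mouse 3 an unadjusted P of at most 0.05 was reached by 3 genes (10.8% of tested genes), and without colitis mouse 4 by 1 (5.97%). In the same comparison all 14 smooth muscle genes were higher with BBR, with a median of 1.19 and 0 at that limit, all 12 leukocyte and myeloid genes were lower, with a median of −1.23 and 7 at that limit, and all 11 neutrophil genes were lower, with a median of −1.94 and 4 at that limit. None passed the adjusted p, and their part in the values of the 10 genes was not tested. Within the mice numbered 4, all 10 genes were higher with BBR, by 0.34 for Per1 to 1.75 for Dbp, with a median of 0.82 against 0.26 in the mice numbered 1 to 3.

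In normal mice, BBR went with higher values of 9 genes (45.8% of tested genes), all but Nr1d1, with a median of 0.57 against −0.02. Per2 was the only gene at an unadjusted P of at most 0.05 (0.516% of tested genes were higher at that limit). It was 1.21 ± 0.47 higher on the log2 scale, adjusted p = 1 in limma (0% of tested genes passed), from 10.9 ± 3.45 to 24.6 ± 3.33 FPKM (SD, n = 3). Per2 and Nr1d2 were without overlap (4.17% of tested genes), and the exact permutation p of each was 0.1. Per2 lost its unadjusted P of 0.05 without normal mouse 1 or 4 or BBR-treated mouse 3 or 4, and 2 genes had it without normal mouse 3 (1.24% of tested genes in either direction, against 1.36% with all mice). All 14 smooth muscle genes were also higher with BBR, with a median of 0.58, and 8 of 9 adipocyte genes were lower, with a median of −1.38, none at an unadjusted P of at most 0.05, and their part was not tested. Ciart differed by 1.29 ± 0.79 (adjusted p = 1 in limma). The median of the 10 genes was 0.37 in the mice numbered 1 to 3 and 1.07 in those numbered 4, and Per2 was higher in both sets, by 1.24 and 1.14.

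Averaged over normal and colitis mice, BBR went with higher values of all 10 genes (39.1% of tested genes), with a median of 0.47 against −0.06. Per2 was again the only one at an unadjusted P of at most 0.05 (0.829% of tested genes were higher, and 0% passed the adjustment), at 0.90 ± 0.33 (adjusted p = 0.923 in limma), with an exact permutation p of 0.05, two-sided. Ciart was at 1.02 ± 0.56 (adjusted p = 1 in limma) and Per1 at 0.07 ± 0.44, which turned to −0.08 in the mice numbered 1 to 3 alone, as Nr1d1 did to −0.014. With single mice left out Per1, Nr1d1, Dbp and Tef also turned, to −0.30, −0.20, −0.067 and −0.13 at the lowest. With all mice 4.94% of tested genes reached an unadjusted P of 0.05 or less in either direction. The count was 0 without normal mouse 1 (3.55% in either direction) or colitis mouse 2 (5.41%), 2 without normal mouse 3 (3.98%) and 4 without BBR-treated colitis mouse 3 (7.99%). Smooth muscle genes were higher for 14 of 14, with a median of 0.95, and leukocyte and myeloid genes lower for 12 of 12, with a median of −0.59, with 0 and 4 at an unadjusted P of at most 0.05 and none past the adjusted p, and their part was not tested. The difference between the BBR effects in colitis and in normal mice was not detectable for any of the 10 (limma, 0 at an unadjusted P of at most 0.05, 2.42% of tested genes, and 0 adjusted, 0%), and its intervals were wide, −4.10 to 5.08 for Dbp.

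The 10 genes varied together from mouse to mouse. Over the 12 mice, Pearson's r of log2(FPKM + 0.1) between pairs of them ran from 0.70 to 0.98 over 45 pairs, with a median of 0.87, and within groups, as deviations from the group means, from 0.48 to 0.99. Mice share their group, number and tissue make-up in these values, and the genome as a whole was also correlated with these genes: 19.2% of 11934 compared genes had r above 0.8 with the mean z-score of the 10. The lowest mice were BBR-treated colitis mouse 3, the lowest for 7 of the 10 genes, and colitis mouse 2, the lowest for Dbp and Per2. The highest was the normal mouse 4 receiving BBR, for 9 of the 10. By that measure the most alike genes were Zfp791 (r = 0.98), Tshz1 (0.97), Klf9 (0.97), Csnk2a1 (0.97), Slc4a4 (0.97), Rnf216 (0.97), Ikzf5 (0.96), Klhl42 (0.96), Arsk (0.96) and 2810021J22Rik (0.96). The least alike were Slc45a3 (−0.97), Wfdc18 (−0.96), Golm1 (−0.96), Cdcp1 (−0.96) and Pglyrp1 (−0.95).

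Genes on the activating side of the clock were examined from a list of related genes. Arntl, which Rev-Erb proteins repress, was at 18.8, 19.7 and 20.1 FPKM in normal mice and at 11.1, 13.1 and 10.2 in BBR-treated normal mice. It was at 14.5, 22.2 and 5.94 in mice with colitis and at 26.8, 21.5 and 10.4 in BBR-treated colitis mice, with the mouse numbered 4 the lowest of both colitis groups. The correlation of Arntl with the 10 genes ran from −0.58 to −0.28 over the 12 mice, and from −0.76 to −0.54 within groups. The other activators differed from it. That of Clock ran from 0.73 to 0.90 over the 12 mice and from 0.57 to 0.83 within groups. That of Npas2 ran from −0.43 to 0.09 and from −0.27 to 0.62. The ratio of Dbp to Arntl FPKM was 2.02, 4.81 and 2.58 in normal mice and 0.465, 0.0256 and 3.85 in colitis mice. With BBR it was 4.999, 5.29 and 12.3 in normal mice and 0.504, 0.0288 and 7.43 in colitis mice, so that the mice numbered 4 and the others lay on different sides of 1 in both colitis groups. Nfil3, whose product represses D-box genes, was at 0.79, 1.03 and 0.76 FPKM in normal mice, 1.13, 0.74 and 0.40 in BBR-treated normal mice, 2.51, 6.68 and 4.45 in colitis mice and 2.79, 4.57 and 1.56 in BBR-treated colitis mice. It rose in colitis by 1.997 ± 0.34 on the log2 scale in the average over BBR (adjusted p = 0.0105 in limma), and the 6 colitis mice lay above the 6 others. Its correlation with the 10 genes ran from −0.89 to −0.70 over the 12 mice and from −0.74 to −0.39 within groups.

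**Figure D4:**
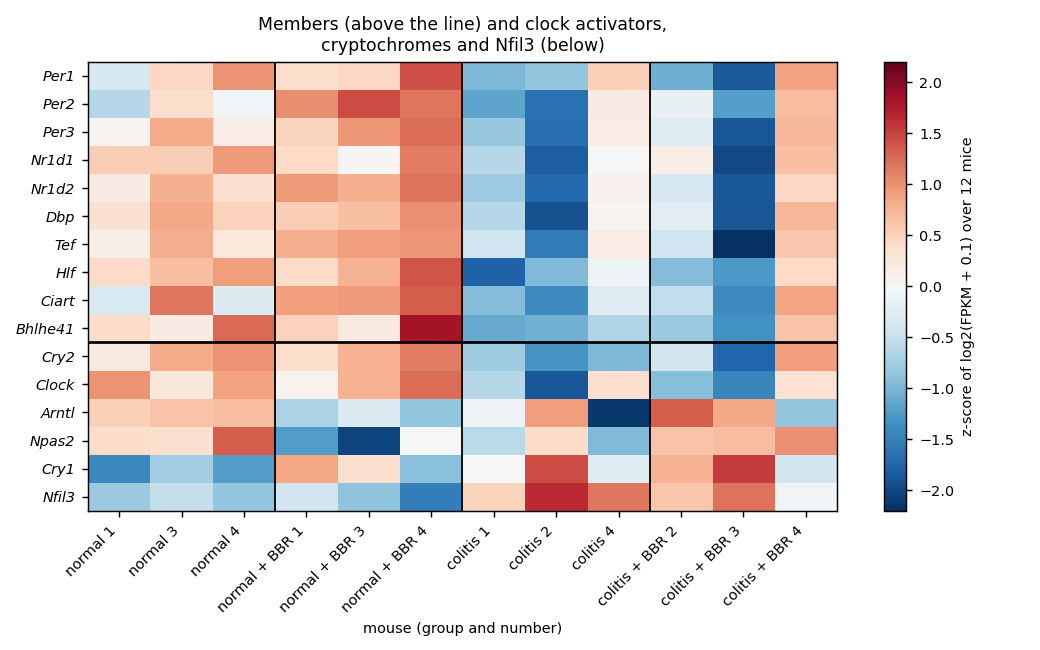
Z-scores of log2(FPKM + 0.1) over the 12 mice for the 10 genes above the line and 6 clock genes below it, with columns in group order and red for high values. Colitis mouse 2 and BBR-treated colitis mouse 3 are dark blue across the upper rows and red for Cry1 and Nfil3, and the last column of each colitis group is lighter or red in the upper rows.

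Of the 10 tested clock activators, cryptochromes, RORs and related genes, 5 were higher and 5 lower in the average over BBR, with 1 higher and 1 lower past the adjusted p of 0.05 in limma. Nfil3 was the one that rose. Cry2, a cryptochrome that represses CLOCK and BMAL1, fell by 1.13 on the log2 scale (SE 0.30, adjusted p = 0.0366 in limma), and its correlation with the 10 genes ran from 0.78 to 0.91 over the 12 mice and from 0.67 to 0.85 within groups. At an unadjusted P of at most 0.05, Cry1, the other cryptochrome, was at 0.61 ± 0.26, Clock at −0.47 ± 0.17 and Rora at −0.73 ± 0.33, none past the adjusted p. With a block for the mice numbered 4 all 3 passed in limma, Cry1 at an adjusted p of 0.0372, Clock at 0.0227 and Rora at 0.0244, and with the replicate block Rora did (adjusted p = 0.0459). Arntl was at 0.01 ± 0.31 and Npas2 at 0.20 ± 0.21. Of 14 clock kinases, ubiquitin ligases and related regulators, 13 were lower and 3 passed the adjusted p, with a median of −0.49, where all tested genes had a median of −0.36 and 78.5% of them were lower. Sirt1, a deacetylase acting on clock proteins, fell by 0.86 (adjusted p = 0.0218 in limma) and Nono, a partner of Period proteins, by 0.49 (adjusted p = 0.0426), or 0.0923 with the replicate block. Prkaa1, a catalytic subunit gene of AMP-activated kinase, was at −0.40, the ubiquitin ligase genes Btrc and Huwe1 at −0.51 and −0.65, and none of these 3 passed the adjusted p, while all 3 did with the block for the mice numbered 4 (adjusted p = 0.0232, 0.0265 and 0.0242 in limma). Of 10 genes rhythmic in many tissues, 7 were lower and 3 passed. The cell cycle kinase gene Wee1 fell by 1.29 (adjusted p = 0.0166 in limma), Tsc22d3 by 0.65 (adjusted p = 0.0382) and Cdkn1a by 0.59 (adjusted p = 0.0461). At an unadjusted P of at most 0.05 without passing the adjusted p, Alas1, the first enzyme of heme synthesis, was higher at 0.82 ± 0.27 (adjusted p = 0.0562 in limma), Nampt higher at 0.34 ± 0.13 (adjusted p = 0.0931) and Usp2, a deubiquitinase gene, lower at −1.24 ± 0.55 (adjusted p = 0.12). Alas1 passed with the replicate block (adjusted p = 0.0154 in limma) and with that for the mice numbered 4 (0.0408), and Nampt with the latter (0.0301). Of 12 glucocorticoid response genes, 10 were lower and 5 passed, namely Sult1a1 at −2.47, Klf9 at −1.12, Nr3c1, the glucocorticoid receptor gene, at −0.45, and Tsc22d3 and Cdkn1a, which are also on the previous list. Nr3c1 did not pass with the replicate block (adjusted p = 0.101 in limma). Klf15 was at −1.80 ± 0.56 (adjusted p = 0.052 in limma) and passed with the replicate block (0.0177) and with that for the mice numbered 4 (0.0247). Over all tested genes 14.3% passed. Of the genes of these lists named as rising or falling, Nfil3, Wee1 and Sult1a1 also passed after quantile normalization and after median centring, and Cdkn1a after the former alone. After quantile normalization the adjusted p in limma was 0.0777 for Cry2, 0.0631 for Sirt1, 0.0751 for Nono, 0.154 for Tsc22d3, 0.0733 for Klf9 and 0.401 for Nr3c1, and these 6 did not pass after median centring either. Alas1 passed after both (adjusted p = 0.036 and 0.028), and Nampt after quantile normalization (0.0419).

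At an unadjusted P of at most 0.05, BBR in normal mice differed in 2 genes of these lists (1.36% of tested genes did, and 0% passed the adjusted p). The activator gene Npas2 was at 9.47, 9.28 and 13.3 FPKM without BBR and at 5.13, 3.81 and 8.14 with it, a difference of −0.95 ± 0.29 (adjusted p = 1 in limma). Arntl differed by −0.77 ± 0.43 (adjusted p = 1 in limma), with the 3 BBR-treated mice below the 3 others. Cry1 differed by 0.73 (adjusted p = 1 in limma), Nfil3 by −0.25 and Clock by less than 0.01. Nampt, a rhythmic gene of NAD synthesis, differed by 0.49 ± 0.19 (adjusted p = 1 in limma).

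Markers of other cell types differed between the same groups. In the average over BBR, 11 of 14 smooth muscle genes fell and 8 of 11 neutrophil genes rose past the adjusted p of 0.05 in limma. Over all 15315 tested genes in that average, 12020 were lower (78.5%) and 3295 higher, with a median of −0.36. Past the adjusted p, 1751 were lower (11.4%) and 437 higher. The marker counts are given without quantile normalization, which moved the median of all tested genes to −0.04. All 14 smooth muscle genes were lower, with a median of −2.37, and in colitis against normal mice without BBR the median was −2.76 with 0 past the adjusted p. There all 14 passed in limma with the block for the mice numbered 4 (adjusted p = 0.0150 for Smtn to 0.0488 for Tagln), as did 1412 of all tested genes. With the replicate block their adjusted p in limma lay on both sides of the limit, from 0.0323 for Synm to 0.0685 for Tpm2 (4.79% of tested genes passed). Their summed level was 2229 to 4172 FPKM in normal mice, 3092 to 6678 in BBR-treated normal mice, 133.9 to 947.6 in colitis mice and 654.3 to 4447 in BBR-treated colitis mice, with no gene at 0 in any group. Neutrophil genes were higher for 11 of 11 tested, with a median of 2.43, and without BBR the median was 3.56 with 3 past the adjusted p. Their summed level was 263.3 to 708.5 in normal mice, 420.4 to 794.1 in BBR-treated normal mice, 615.9 to 4232 in colitis mice and 491.7 to 2960 in BBR-treated colitis mice. Of the 12 listed neutrophil genes, S100a8 was listed at 0 in all mice of each normal group. All 10 endothelial genes were lower in the average over BBR, with a median of −1.03 and 4 past the adjusted p, and summed to 32.1 to 40.9 FPKM in the normal groups and 10.7 to 31.3 in the colitis groups. Of 14 stromal fibroblast genes 12 were lower (78.5% of tested genes were), with a median of −0.87. Of these, 4 passed the adjusted p (11.4% of tested genes passed as lower). The stromal list summed to 404.7 to 804.4 FPKM in the normal groups and 259.8 to 949.4 in the colitis groups. Of 12 leukocyte and myeloid genes 10 were higher and 2 passed the adjusted p. Of 11 lymphocyte genes 6 were lower and 2 passed, and the list summed to 205.8 to 249.9 FPKM in normal mice, 160.9 to 281.2 in BBR-treated normal mice, 40.5 to 112.1 in colitis mice and 9.94 to 40.2 in BBR-treated colitis mice. Of 11 enteric neuron and glia genes 9 were lower and 2 passed, of 7 skeletal muscle genes 1 passed as higher and 2 as lower, and of 9 adipocyte genes 1 passed as lower. The 14 colon epithelium genes had a median of 0.04 with none past it, and summed to 14262 to 23735 FPKM over the 12 mice, so that epithelial markers were present in the tissue labelled colorectum. With the block for the mice numbered 4, Krt20, Cdhr5 and Muc2 passed as higher (adjusted p = 0.0361, 0.0374 and 0.0445 in limma), where 34.9% of tested genes passed. The mean log2 level of the smooth muscle list had r = 0.83 with the mean z-score of the 10 genes over the 12 mice and 0.65 within groups, and that of the neutrophil list −0.86 and −0.75. With 8 of 12 mice, without those numbered 4, these were 0.77 and −0.88. For comparison, single genes had a median r of 0.54 with that score over the 12 mice, with 75.2% of 11934 genes above 0. Over the 12 mice and within groups r was 0.69 and 0.40 for the endothelial list, 0.52 and 0.25 for stromal fibroblasts, −0.72 and −0.78 for leukocytes and myeloid cells, and −0.72 and −0.65 for 8 squamous epithelium genes, of which 4 were higher and none passed. In the same order, skeletal muscle was at 0.61 and 0.44, enteric neurons and glia at 0.32 and −0.02, and lymphocytes at 0.12 and −0.36. Adipocytes were at −0.21 and −0.27 and colon epithelium at −0.23 and −0.27. Of the clock lists, kinases and ubiquitin ligases were at 0.93 and 0.89 and genes rhythmic in many tissues at 0.88 and 0.89. Glucocorticoid response genes were at 0.61 and 0.29, and clock activators, cryptochromes and RORs at 0.01 and 0.12. Fewer cells of a type and less RNA per cell cannot be told apart in bulk tissue, and the part of cell make-up in the levels of the 10 genes was not tested.

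**Figure D5:**
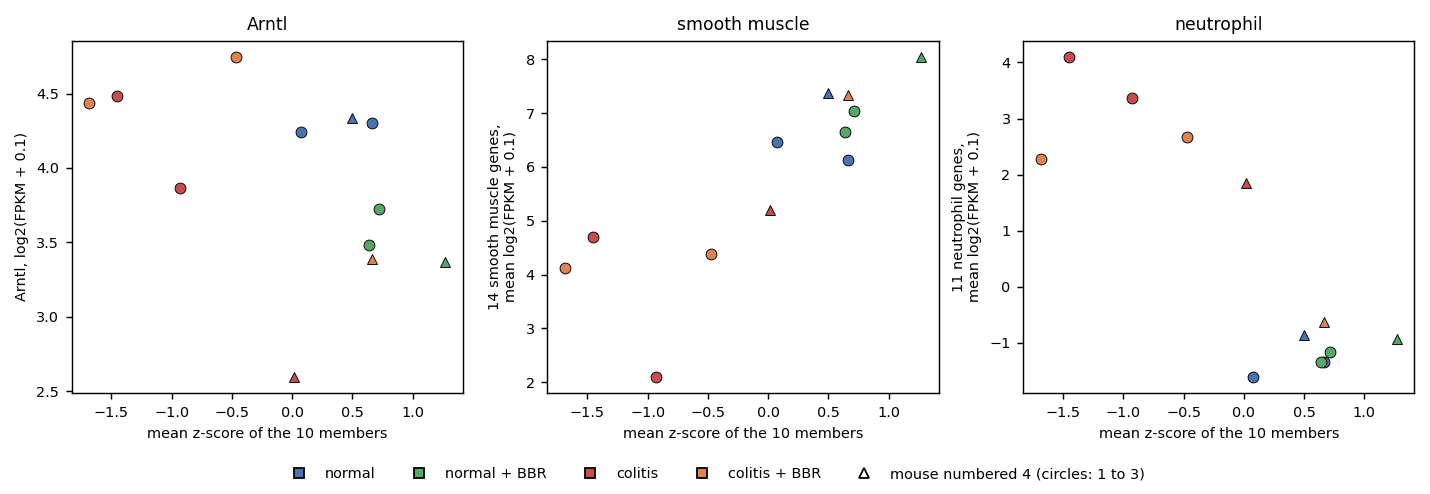
Mean z-score of the 10 genes in each of the 12 mice against log2(FPKM + 0.1) of Arntl, the mean log2 level of 14 smooth muscle genes and that of 11 neutrophil genes, coloured by group, with triangles for mice numbered 4. The mice low in the 10 genes are low in smooth muscle genes and high in neutrophil genes (r = 0.83 and −0.86).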

How the data were processed

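RNA-seq had been done on gut tissue of 12 mice, 3 in each of 4 groups named in the sample titles. The authors deposited 1 table of normalised expression per gene and mouse, made per the submitters' processing notes with Bowtie2 2.2.5 and RSEM 1.2.12 on build mm9, after read filtering described in the methods. The values were taken as FPKM, inferred from column totals that differ between mice and from their unit per read. TPM cannot be told apart from a rescaled FPKM here, and counts were not used here. From the deposited FPKM, log2(FPKM + 0.1) was computed for 15315 genes with a mean of at least 0.1 FPKM and tested with limma 3.58.1 in R 4.3.3 (trended, moderated variance, 4 group means, Benjamini-Hochberg adjustment), with an adjusted p under 0.05 as the limit. Nothing in the labels says the mice were paired or housed apart, so p-values measure the spread between these mice. That spread includes the shared deviation of the mice numbered 4, which fits without a block do not remove. Exact permutation tests were two-sided. Depth per mouse is not given; the FPKM that 1 read adds was estimated from the low values, and limits from it cover counting error only. No column went without a sample (0 columns). Fits were run on simulated data with known changes. These were drawn independently for each gene, whereas the real mice deviated together over many genes. The simulation therefore does not show how the fits behave on these data. Alternatives were the pseudocount, the filter, quantile normalization, median centring, the compared groups alone, no trend, blocks for the replicate number and for mice numbered 4, mice numbered 1 to 3 alone, and each mouse left out. Quantile normalization together with the block for mice numbered 4 was chosen after seeing the data. Members and gene lists were chosen with earlier results of these data known. The text names all 10 members, 5 clock genes (Arntl, Npas2, Clock, Cry1 and Nfil3), at most 6 genes per list with an unadjusted P of at most 0.05 (1 of these genes is not reported here), and the 10 most and 5 least alike genes. Promoters are RefSeq's on GRCm38.p6, searched by exact letters. Motif shares are over all entries of the table.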

Additional observations from a re-analysis of the deposited data

Results flagged for a closer look

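No group had enough mice for a test of single outlying mice. The difference between the BBR effect in colitis and in normal mice had an unadjusted P of at most 0.05 in limma for 2 genes of the clock lists and for none of the 10 members. For Npas2 it was 1.57 ± 0.42 on the log2 scale (adjusted p = 1 in limma), as BBR-treated normal mice were lower by −0.95 and BBR-treated colitis mice higher by 0.62. For Nampt, a rhythmic gene of NAD synthesis, it was −0.62 ± 0.27 (adjusted p = 1 in limma), the BBR difference being 0.49 in normal and −0.13 in colitis mice. Neither holds after adjustment over all 15315 genes.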

How the results depend on the processing

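The pairing of mice by number was checked by the correlation of deviations from the group means. It averaged 0.340 between mice of the same number (0.497 for number 4, 0.205 for other numbers, lowest 0.0777) and −0.103 between mice of different numbers. The latter includes pairs of a mouse numbered 4 with another mouse, which ran from −0.532 to 0.0472. Pairs of different numbers without a mouse numbered 4 ran from −0.150 to 0.456. That range holds the same-number pairs other than number 4, at 0.0777 to 0.386, so the 0.205 does not show pairing by those numbers. The 6 pairs of mice numbered 4 ran from 0.357 to 0.751, so these mice deviated together. The pair numbered 2 was at 0.0777, under the 0.1 asked of every pair, so the numbers as a whole were not taken as a pairing, and the replicate block and a block for the mice numbered 4 are given as alternatives. The direction of all 10 genes in the average over BBR was lower in every setting and with each mouse left out. Precision is limited by 3 mice a group, by the spread between mice numbered 4 and the others and by the low reads behind Hlf and Bhlhe41. The cause of the changes below was not tested. Percentages beside a count are the share of all tested genes at the same limit under that setting, in either direction. With all mice and the settings of the report, an unadjusted P of at most 0.05 was held by 21.4% for colitis against normal mice, 6.39% for BBR in colitis mice, 1.36% for BBR in normal mice, 20.1% for BBR-treated colitis against normal mice, 19.7% for colitis among BBR-treated mice and 4.94% for the average BBR effect. For colitis against normal mice, the count of 5 with an unadjusted P of at most 0.05 became 8 (compared groups alone, 22.5%) and 10 (mice numbered 1 to 3 alone, 33.4%), and the count of 0 with an adjusted p under 0.05 became 2 (replicate block, 4.79%), 2 (block for the mice numbered 4, 9.22%), 1 (mice numbered 1 to 3 alone, 5.25%) and 1 (quantile normalization with a block for the mice numbered 4, 8.51%). For BBR in normal mice, the count of 1 with an unadjusted P of at most 0.05 became 3 (compared groups alone, 4.91%). For BBR-treated colitis against normal mice, the count of 1 with an unadjusted P of at most 0.05 became 0 (pseudocount 0.01, 19.9%), 3 (replicate block, 22.8%), 5 (block for the mice numbered 4, 32.7%) and 8 (mice numbered 1 to 3 alone, 38.6%), and the count of 0 with an adjusted p under 0.05 became 3 (mice numbered 1 to 3 alone, 14.1%). For colitis among BBR-treated mice, the count of 8 with an unadjusted P of at most 0.05 became 5 (quantile normalization, 12.4%) and 5 (median centring, 11.1%), and the count of 0 with an adjusted p under 0.05 became 1 (block for the mice numbered 4, 1.75%) and 6 (mice numbered 1 to 3 alone, 15%). For the average over BBR, the count of 3 with an adjusted p under 0.05 became 1 (quantile normalization, 8.34%), 1 (median centring, 6.69%), 5 (replicate block, 16.1%), 10 (block for the mice numbered 4, 34.9%), 10 (mice numbered 1 to 3 alone, 40.4%) and 6 (quantile normalization with a block for the mice numbered 4, 18.1%). For the average BBR effect, the count of 1 with an unadjusted P of at most 0.05 became 2 (quantile normalization, 6.2%) and 2 (quantile normalization with a block for the mice numbered 4, 9.88%). Leaving out each mouse in turn moved these values. For colitis against normal mice, it moved the count with an unadjusted P past the limit from 1 to 9 (14% to 31.4% of tested genes). For BBR in colitis mice, it moved the median from −0.33 to 1.12 and the count with an unadjusted P past the limit from 0 to 3 (3.24% to 10.9% of tested genes). For BBR in normal mice, it moved the count with an unadjusted P past the limit from 0 to 2 (0.614% to 1.7% of tested genes). For BBR-treated colitis against normal mice, it moved the count with an unadjusted P past the limit from 0 to 9 (9.68% to 40.9% of tested genes) and the count with an adjusted p past the limit from 0 to 4 (0% to 18.9% of tested genes). For colitis among BBR-treated mice, it moved the count with an unadjusted P past the limit from 0 to 10 (9.44% to 38.6% of tested genes) and the count with an adjusted p past the limit from 0 to 9 (0% to 14.7% of tested genes). For the interaction, it moved the median from −1.06 to 0.48 and the count with an unadjusted P past the limit from 0 to 1 (1.46% to 5.8% of tested genes). For the average over BBR, it moved the count with an adjusted p past the limit from 0 to 10 (2.08% to 38.8% of tested genes). For the average BBR effect, it moved the count with an unadjusted P past the limit from 0 to 4 (3.16% to 8.89% of tested genes). Single genes near 0 changed sign under other settings: Tef for BBR in colitis mice to 0.0717 (quantile normalization), 0.0615 (median centring), 0.0659 (replicate block) and 0.0717 (quantile normalization with a block for the mice numbered 4), Per2 for BBR-treated colitis against normal mice to 0.28 (quantile normalization), 0.37 (median centring) and 0.28 (quantile normalization with a block for the mice numbered 4), Hlf for the interaction to −0.039 (pseudocount 1), Bhlhe41 for the interaction to −0.0621 (mice numbered 1 to 3 alone), Per1 for the average BBR effect to −0.0778 (mice numbered 1 to 3 alone), Nr1d1 for the average BBR effect to −0.0141 (mice numbered 1 to 3 alone), Arntl for the average over BBR to −0.25 (replicate block), Clock for BBR in normal mice to 0.00903 (quantile normalization), 0.0309 (median centring) and 0.00903 (quantile normalization with a block for the mice numbered 4) and Nfil3 for BBR in normal mice to 0.0195 (mice numbered 1 to 3 alone). With each mouse left out, the log2 fold changes that changed sign ranged as follows. For BBR in colitis mice they were Per1 −0.97 to 0.33, Per3 −0.39 to 1.31, Nr1d1 −0.18 to 1.87, Nr1d2 −0.38 to 1.07, Dbp −0.59 to 2.78, Tef −0.98 to 0.97, Hlf −0.27 to 1.33, Ciart −0.14 to 1.53 and Bhlhe41 −0.15 to 0.96. For BBR in normal mice they were Nr1d1 −0.68 to 0.17, Hlf −0.13 to 0.69, Bhlhe41 −0.29 to 0.63, Clock −0.10 to 0.10 and Nfil3 −0.56 to 0.0934. For BBR-treated colitis against normal mice they were Per2 −0.54 to 0.33. For the interaction they were Per3 −1.12 to 0.58, Nr1d2 −1.06 to 0.39, Dbp −1.05 to 2.32, Tef −1.70 to 0.26, Hlf −0.59 to 1.01, Ciart −1.43 to 0.24 and Bhlhe41 −0.41 to 0.78. For the average BBR effect they were Per1 −0.30 to 0.35, Nr1d1 −0.20 to 0.83, Dbp −0.0665 to 1.62 and Tef −0.13 to 0.84. For the average over BBR they were Arntl −0.20 to 0.27. Of the single-gene values under settings other than leaving out a mouse, 1159 kept their direction and side of the limit, 62 passed it only there, 31 passed it only as reported and 16 changed sign. With 1 mouse left out these numbers were 793, 42, 103 and 58.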
